A study of Mus musculus with 6 samples.

Results

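RNA levels of 10 receptors and co-receptors of BMP and TGF-beta ligands were examined in endothelial cells of the mouse lung. The receptors were chosen by name: Acvrl1, Tgfbr1, Acvr1, Bmpr1a, Bmpr2, Tgfbr2, Acvr2a, Acvr2b, Eng and Tgfbr3. Genes of pulmonary arterial hypertension are among them. All 10 were found by Ensembl identifier among the 24520 genes measured. The series holds 6 RNA-seq libraries of flow-sorted lung endothelium, 3 from wild-type mice aged 18 months (labelled aged) and 3 from wild-type mice aged 8 months (labelled mAdu). No treatment or induced allele is given for either age, and the sources used here do not give the sort markers, the sex of the mice or the number of mice behind a library. The title of the series concerns DNMT3A, an enzyme that methylates DNA, and the endothelial enhancer landscape; age is the sole difference between the libraries that the labels give.

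Receptors of this family work as complexes on the cell surface. A ligand dimer brings type II receptors, which are constitutively active kinases, together with type I receptors, which they phosphorylate; the type I receptor then phosphorylates SMAD1, SMAD5 and SMAD9 in the BMP branch or SMAD2 and SMAD3 in the TGF-beta and activin branch. Co-receptors such as endoglin and betaglycan have no kinase of their own and present ligand to the complex. In endothelium the circulating ligands BMP9 and BMP10 signal mainly through ALK1 (Acvrl1), BMPR2 and endoglin; in humans, loss of ENG or ACVRL1 causes hereditary haemorrhagic telangiectasia, and loss of BMPR2 is the main heritable cause of pulmonary arterial hypertension.

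The promoter sequences of 3 of these genes are shown because DNA methylation, the subject of the series' title, falls on CpG dinucleotides, and because the receptor promoters differ widely in how many they hold. They belong to the most abundant receptor of each class that has an entry in the RefSeq table used (build GRCm38.p6). Acvrl1, which held 97.8% of type I receptor RNA at 18 months and 98.2% at 8 months, has no entry, nor has Tgfbr3. Tgfbr1 held 1.27% and 0.999% of type I receptor RNA. Each window runs from 250 bases before the RefSeq transcription start to 50 bases from the start on. The Bmpr2 window lies wholly within the gene span given below, which GENCODE M21 starts farther upstream, at 59763400. Tgfbr1, the type I receptor, has its window at chr4:47352972-47353271 on the plus strand; Bmpr2, the type II receptor, at chr1:59764029-59764328 on the plus strand; and Eng, the co-receptor, at chr2:32646345-32646644 on the plus strand. CpG dinucleotides are in capitals.
Tgfbr1: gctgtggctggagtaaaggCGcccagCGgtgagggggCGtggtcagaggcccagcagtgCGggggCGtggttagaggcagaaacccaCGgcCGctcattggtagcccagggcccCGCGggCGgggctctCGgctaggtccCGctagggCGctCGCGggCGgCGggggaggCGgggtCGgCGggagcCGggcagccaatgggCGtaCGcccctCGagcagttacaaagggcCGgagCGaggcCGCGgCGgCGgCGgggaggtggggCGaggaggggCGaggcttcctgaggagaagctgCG
Bmpr2: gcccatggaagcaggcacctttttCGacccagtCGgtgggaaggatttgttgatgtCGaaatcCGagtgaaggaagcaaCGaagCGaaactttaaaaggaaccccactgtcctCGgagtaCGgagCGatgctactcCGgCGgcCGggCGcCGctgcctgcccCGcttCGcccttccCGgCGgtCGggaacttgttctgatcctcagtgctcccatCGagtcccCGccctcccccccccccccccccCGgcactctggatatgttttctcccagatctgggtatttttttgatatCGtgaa
Eng: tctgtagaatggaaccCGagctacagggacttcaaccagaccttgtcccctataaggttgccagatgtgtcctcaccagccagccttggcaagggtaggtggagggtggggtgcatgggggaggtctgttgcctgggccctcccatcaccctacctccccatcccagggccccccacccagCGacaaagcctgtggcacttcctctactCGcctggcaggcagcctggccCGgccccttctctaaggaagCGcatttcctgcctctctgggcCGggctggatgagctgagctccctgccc

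The Tgfbr1 window held 34 CpG, more than 92.3% of the 32851 windows of the table. In the Bmpr2 window there were 23, more than 78.5% of windows, and in the Eng window 6, more than 43.6% of windows. The window of Eng was thus near the median of 7 CpG, and those of Bmpr2 and Tgfbr1 well above it. Over the 8 receptor genes with an entry, which have 9 windows because Tgfbr1 has a second one with 3 CpG, 7 windows lay above the median; Acvr2a reached 54 CpG, Acvr1 51, Bmpr1a 48, Acvr2b 27 and Tgfbr2 15. On either strand, GGAA, the core of sites bound by ETS factors, stood in all 9 windows and in 96.0% of all windows. CACCC, letters shared by sites of Kruppel-like factors, stood in 7 of 9 windows and in 57.5% of all windows; the Eng window had 4. GGCGCC, part of BMP-responsive elements, stood in 3 of 9 windows, those of Bmpr2 and Tgfbr1 among them, and in 11.9% of all windows. GTCTAGAC, a palindromic SMAD box, and TATAAA stood in 0 of 9 windows, against 0.2% and 13.6% of all windows. DNA methylation at these promoters was not analysed here.

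RNA was measured as TPM, a transcript abundance corrected for length and relative to all transcripts of a library, so levels of different receptors can be set side by side. The table sums to between 869315 and 876126 TPM per library; TPM hold no read number, so the depth behind each value is unknown. The sorted cells carried endothelial markers at high levels: the 8 pan-endothelial markers, Pecam1 and Cdh5 among them, summed to 5666 to 6416 TPM at 18 months and 6763 to 7023 TPM at 8 months. Single epithelial genes were as high: over all libraries Scgb1a1 ranged over 5224 to 12297 TPM and Sftpc over 3945 to 11881 TPM. How much RNA came from cells other than endothelium was not tested. Nothing in the labels ties the 3 libraries of an age to separate mice; the p-values therefore reflect library-to-library spread, part of which may be technical. Differences between the ages were tested with limma on log2(TPM + 1) in the 12748 genes whose mean was 1 TPM or more, and p-values were adjusted over all of them by the Benjamini-Hochberg method with a threshold of 0.05.

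The 10 receptors spanned more than 3 orders of magnitude in RNA. Acvrl1 stood highest, with rank 69 of 24520 genes, and Eng followed with rank 238 and Bmpr2 with rank 716. The next were Tgfbr3 and Tgfbr2, at means over the 6 libraries of 53.5 ± 15.6 and 38.6 ± 5.56 TPM (SD, n = 6), then Tgfbr1 at 15.3 ± 2.23, Acvr2a at 11.6 ± 1.88, Acvr1 at 11.4 ± 1.98 and Acvr2b at 6.54 ± 0.740 TPM. Bmpr1a was lowest at 0.667 ± 0.171 TPM. Among neighbours in this order, the ranges over libraries overlapped for Tgfbr3 and Tgfbr2, for Tgfbr1 and Acvr2a, and for Acvr2a and Acvr1. The ranges of the other neighbours, Acvrl1, Eng and Bmpr2 among them, did not meet. The 3 receptors above 100 TPM, Acvrl1, Bmpr2 and Eng, are the type I, type II and co-receptor of the BMP9 and BMP10 complex.

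**Figure D1:**
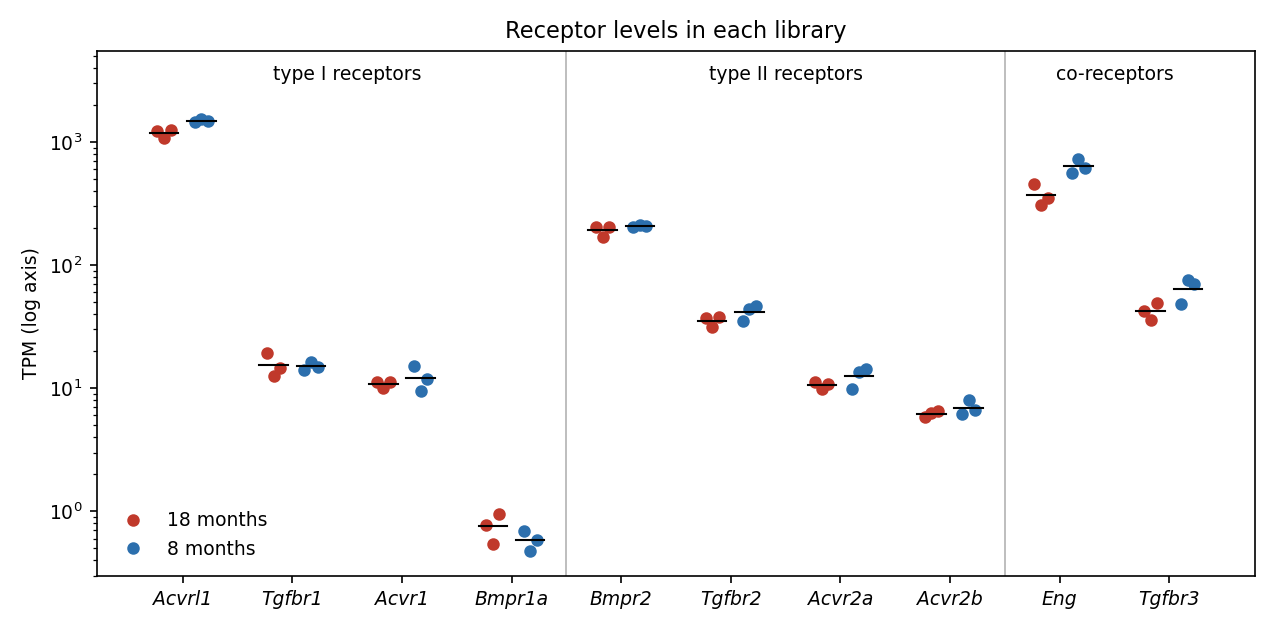
TPM of each receptor in each library on a log axis, with the 18-month libraries (red) to the left of the 8-month libraries (blue) and short lines at the mean of 3 libraries. Acvrl1 lies above 1000 TPM in every library and Bmpr1a below 1 TPM, and the Eng points of the ages stand apart.

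None of the 9 receptors that passed the filter differed between the ages at an adjusted p below 0.05 in limma, a threshold that 0.0235% of all tested genes (3 of 12748) passed. The difference was below 0 for 8 of the 9, a sign shared by 66.2% of all tested genes, and the median difference was -0.21 for the receptors and -0.08 for all tested genes (log2, 18 minus 8 months). Unadjusted p-values under 0.05 were found for 3 receptors, Eng, Acvrl1 and Tgfbr3, all lower at 18 months, where 9.99% of all tested genes met that mark. No receptor was higher at that mark, against 3.45% of all tested genes. The ages did not overlap for Eng, Acvrl1 and Bmpr2, again lower at 18 months, a pattern seen in 14.2% of all tested genes; for the opposite pattern the count was 0 receptors and 4.48% of genes. Bmpr1a, the tenth receptor, did not pass the filter and has no test. In sorted bulk cells, a smaller share of cells that carry a receptor and less of its RNA per cell cannot be told apart.

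**Figure D2:**
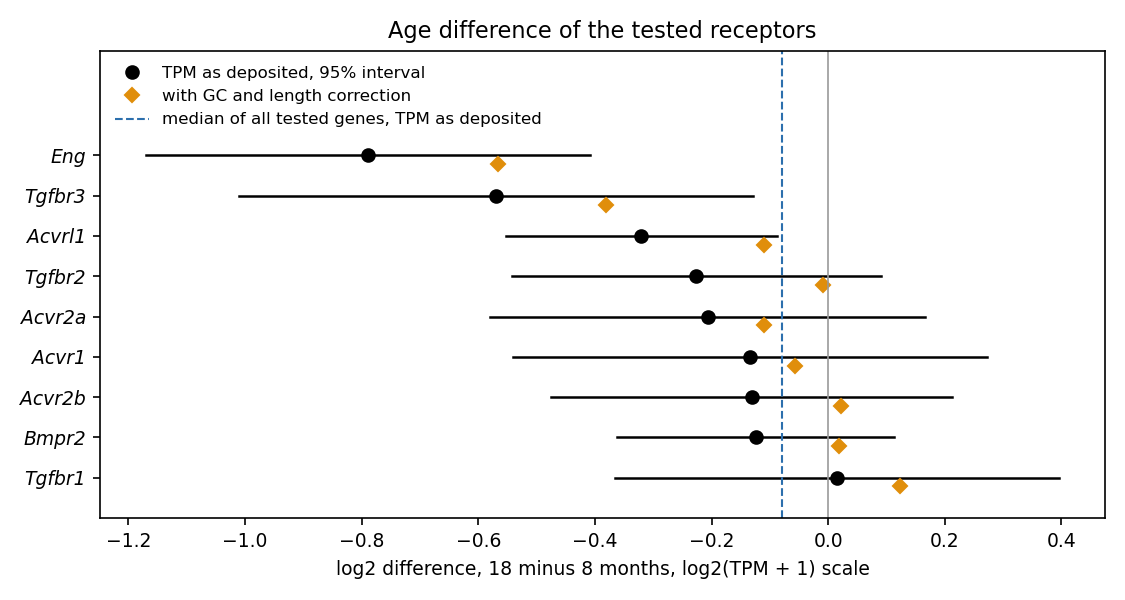
Difference between 18 and 8 months for the 9 tested receptors on the log2(TPM + 1) scale, as black points with 95% intervals, the same after correction for transcript length and GC content as diamonds, and the median of all tested genes as a dashed line. The intervals of Eng, Tgfbr3 and Acvrl1 lie below 0 and those of the other 6 receptors include it.

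Among the type I receptors, the kinases that phosphorylate SMADs, Acvrl1 (ALK1; chromosome 15:101128522-101145336, plus strand, GRCm38) is the receptor through which endothelium responds to BMP9 and BMP10. It stood at 1236, 1082 and 1245 TPM in the 18-month libraries, against 1447, 1521 and 1474 TPM in the 8-month libraries. Each 18-month library was below each 8-month library, and the gap between the ages was wider than the spread within either. The means were 1188 ± 91.6 TPM at 18 months and 1480.5 ± 37.5 TPM at 8 months (SD, n = 3 each), 19.8% lower at 18 months. The log2 difference was -0.32 (SE 0.10, 95% interval -0.55 to -0.09) with an unadjusted p of 0.013 and a limma adjusted p of 0.23. Corrected for transcript length and GC content, the difference was -0.11; the longest Acvrl1 transcript has 56.6% GC.

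Tgfbr1 (ALK5; chromosome 4:47353222-47414931, plus strand), the type I receptor for TGF-beta, stood at 19.1, 12.6 and 14.6 TPM in the 18-month libraries, against 14.1, 16.3 and 14.8 TPM in the 8-month libraries. The 18-month libraries held both the highest and the lowest value, with all 8-month libraries between them. Its log2 difference was 0.02 (95% interval -0.36 to 0.40, limma adjusted p = 0.98), an interval that reaches well to either side of 0. Without the first 18-month library the difference was -0.14. Acvr1 (ALK2; chromosome 2:58388644-58567157, minus strand), a type I receptor for several BMPs and activins, had 11.2, 9.95 and 11.1 TPM at 18 months, against 15.1, 9.46 and 11.8 TPM at 8 months. Its 18-month values sat inside the wider range at 8 months (log2 difference -0.13, 95% interval -0.54 to 0.27, limma adjusted p = 0.80), and without the first 8-month library the difference was 0.03.

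Bmpr1a (ALK3; chromosome 14:34410734-34503341, minus strand), the type I receptor that carries BMP2 and BMP4 signals in many tissues, was close to the floor of the table. Its values were 0.771, 0.542 and 0.945 TPM at 18 months, against 0.686, 0.479 and 0.582 TPM at 8 months, and the ages overlapped. With no filter on low values its log2 difference was 0.14 (95% interval -0.14 to 0.42, limma adjusted p = 0.70).

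Of the type II receptors, Bmpr2 (chromosome 1:59763400-59879014, plus strand), the partner of ALK1 and ALK3, was the most abundant. It had 204 TPM in the first, 168 in the second and 205 in the third 18-month library, against 205, 213 and 209 TPM in the 8-month libraries. The first and the third 18-month library were level with the lowest 8-month library, and only the second lay well under it; the ranges missed each other by less than 1 TPM. The means were 192 ± 20.6 TPM at 18 months and 209 ± 3.84 TPM at 8 months (SD, n = 3 each). The log2 difference of -0.12 (SE 0.10, 95% interval -0.36 to 0.11) had a limma adjusted p of 0.66. Without the second 18-month library the difference was -0.03.

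Tgfbr2 (chromosome 9:116084293-116175360, minus strand), the type II receptor for TGF-beta, had 37.1, 31.6 and 37.5 TPM at 18 months, against 34.9, 44.1 and 46.2 TPM at 8 months. The first 8-month library fell among the 18-month libraries and the other two were above them. The log2 difference was -0.23 (95% interval -0.54 to 0.09, limma adjusted p = 0.53). Corrected for transcript length and GC content it was -0.0096, and with a library left out it ranged over -0.35 to -0.15. Acvr2a (chromosome 2:48814109-48903269, plus strand), a type II receptor for activins and BMPs, had 11.1, 9.91 and 10.9 TPM at 18 months, against 9.88, 13.4 and 14.4 TPM at 8 months (log2 difference -0.21, limma adjusted p = 0.64). Here too the first 8-month library was low, just under the lowest 18-month library, and the other two were above all 18-month libraries. The Acvr2a difference was -0.36 without the first 8-month library and -0.11 without the third. Its close relative Acvr2b (chromosome 9:119402118-119434995, plus strand) had 5.82, 6.27 and 6.47 TPM at 18 months, against 6.15, 7.95 and 6.60 TPM at 8 months, and the ages overlapped (log2 difference -0.13, limma adjusted p = 0.77).

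The co-receptors had the differences of largest size among the 9 tested receptors. Eng, or endoglin (chromosome 2:32646595-32682669, plus strand), which binds BMP9 and BMP10 beside ALK1, stood at 454, 307 and 350 TPM in the 18-month libraries, against 562, 733 and 615 TPM in the 8-month libraries. All 18-month libraries were below all 8-month libraries, though the gap between the ages was narrower than the spread within either. The means were 371 ± 75.7 TPM at 18 months and 637 ± 87.6 TPM at 8 months (SD, n = 3 each), 41.8% lower at 18 months. The log2 difference was -0.79 (SE 0.16, 95% interval -1.17 to -0.41), with an unadjusted p of 0.0015 and a limma adjusted p of 0.14. Corrected for transcript length and GC content, the difference was -0.57. Library weights in limma gave -0.84 with an adjusted p of 0.044, in a fit that called 94 of all 12748 genes; over the 18 alternatives the adjusted p ranged over 0.044 to 0.349 and passed the threshold in that 1.

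Tgfbr3, or betaglycan (chromosome 5:107106570-107289629, minus strand), which presents TGF-beta2 and inhibins, had 42.6, 35.9 and 49.4 TPM at 18 months, against 47.9, 75.2 and 70.0 TPM at 8 months. The first 8-month library was just under the third 18-month library, so the ages overlapped by that pair, and the other two 8-month libraries stood well above. The means were 42.6 ± 6.74 TPM at 18 months and 64.4 ± 14.5 TPM at 8 months (SD, n = 3 each), 33.8% lower at 18 months. The log2 difference was -0.57 (SE 0.19, 95% interval -1.01 to -0.13), with an unadjusted p of 0.018 and a limma adjusted p of 0.25. The 6 venous markers, all lower at 18 months, summed to 668, 498 and 629 TPM at 18 months, against 737, 1305 and 1089 TPM at 8 months. Their order of 8-month libraries was that of Tgfbr3. It was also that of Eng, Acvrl1, Bmpr2, Tgfbr1 and Acvr2b, so it was not particular to Tgfbr3. At 18 months the venous order was not that of Tgfbr3, whereas Eng and Tgfbr1 followed it at both ages. The part of venous cells in the receptor values was not tested.

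Summed by class, the type I receptors came to 1215 ± 94.8 TPM at 18 months, against 1508 ± 35.7 TPM at 8 months, the type II receptors to 244 ± 24.5 and 270 ± 12.2 TPM, and the co-receptors to 413 ± 77.8 and 701 ± 100 TPM (SD, n = 3 each). The sum of all 10 ranged over 1664 to 2022 TPM at 18 months and 2342 to 2633 TPM at 8 months. Within each class a single gene held most of the RNA at either age. Acvrl1 held 97.8 ± 0.209% of type I receptor RNA at 18 months and 98.2 ± 0.165% at 8 months, Bmpr2 held 78.6 ± 0.610% and 77.4 ± 2.37% of type II, and Eng held 89.5 ± 1.89% and 90.9 ± 1.19% of the co-receptors. The shares of Bmpr2 and Eng overlapped between the ages and those of Acvrl1 only just missed each other, while the class means themselves were lower at 18 months.

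Ratios within a library do not depend on how libraries are scaled, but can depend on the GC content and length of the transcripts. The longest transcripts of Eng, Acvrl1 and Bmpr2 have 57.4%, 56.6% and 41.0% GC. Corrected for both, their log2 differences were -0.57, -0.11 and 0.02. The ratios given here are not corrected and were chosen after the values had been seen, so they have no test. Eng over Acvrl1 was 0.368, 0.284 and 0.281 at 18 months, against 0.388, 0.482 and 0.418 at 8 months. Eng over Bmpr2 was 2.23, 1.82 and 1.71 at 18 months, against 2.74, 3.44 and 2.95 at 8 months. Endoglin RNA was thus lower relative to both of its partners in every 18-month library than in any 8-month library. Acvrl1 over Bmpr2 was 6.07, 6.42 and 6.08 at 18 months, against 7.05, 7.15 and 7.06 at 8 months, and Tgfbr3 over Tgfbr2 was 1.15, 1.14 and 1.32, against 1.37, 1.71 and 1.51. Of the 7 ratios between receptors that were computed, these 4 and Acvrl1 over Tgfbr1 did not overlap between the ages, whereas Tgfbr2 over Tgfbr1 and Bmpr2 over Tgfbr2 did. All the ratios without overlap but Tgfbr3 over Tgfbr2 hold Eng or Acvrl1, whose own levels did not overlap, so they are not separate observations. The share of all gene pairs without overlap was not computed.

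Set against the 8 pan-endothelial markers, 7 of which were themselves lower at 18 months (median log2 difference -0.17), Eng and Acvrl1 gave different pictures. Eng was lower at 18 months without overlap relative to 7 of the 8 markers, the exception being Kdr. These ratios all share Eng, whose own levels did not overlap, as in 14.2% of all tested genes, so they are not separate observations. How many other genes would give as many such ratios was not counted. Eng over Cdh5, the endothelial cadherin, was 0.615, 0.470 and 0.431 at 18 months, against 0.642, 0.838 and 0.664 at 8 months. Acvrl1 overlapped between the ages relative to 6 of the 8 markers, was lower relative to Pecam1, the 1 marker that was not lower at 18 months, and was higher relative to Kdr. Acvrl1 over Cdh5 was 1.67, 1.66 and 1.53 at 18 months, against 1.65, 1.74 and 1.59 at 8 months, with no separation of the ages. Its lower level at 18 months was thus of the size seen in several endothelial markers, and that of Eng was larger.

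**Figure D3:**
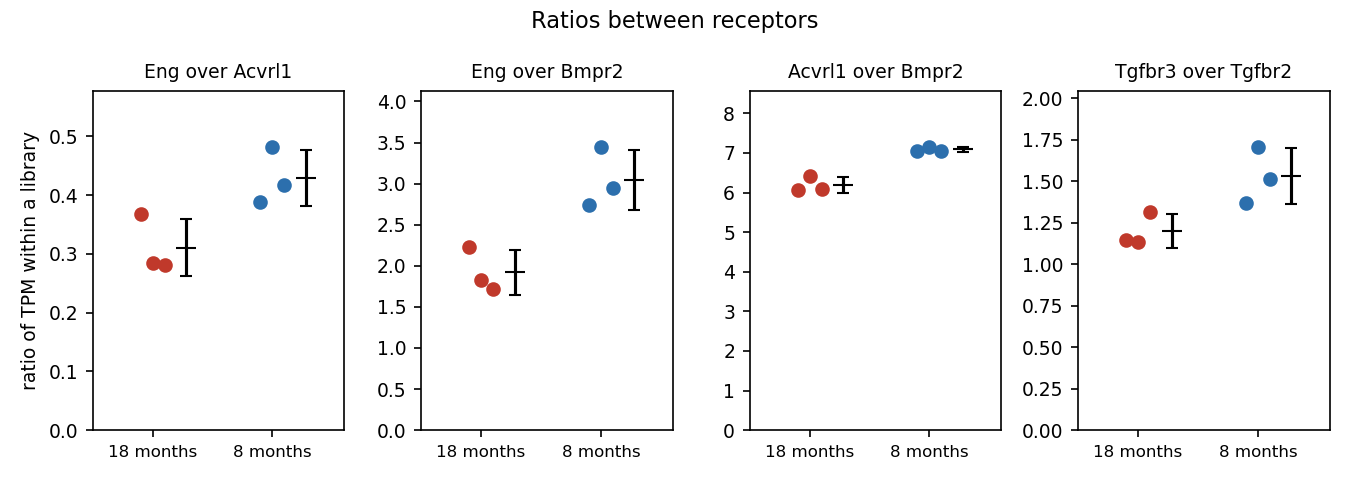
Ratio of the TPM of paired receptors within each library, with 18-month libraries in red on the left, 8-month libraries in blue on the right and bars at the mean ± SD of 3 libraries; each axis starts at 0. In all 4 panels every 18-month library lies below every 8-month library.

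The scaling of the libraries moved all genes, so each receptor was also set against the median of all tested genes. As deposited, 440 genes were higher and 1274 lower at 18 months at an unadjusted p under 0.05; scaled to the mean log2 TPM of the 8 pan-endothelial markers, an alternative added after the data were seen, 1444 were higher and 463 lower, and this moved the all-gene median by 0.18 on the log2 scale. With median-of-ratios scaling the split was 757 higher and 879 lower. Relative to the median of all genes, Eng ranged over -0.83 to -0.58 in the 19 settings run, Tgfbr3 over -0.67 to -0.37 and Acvrl1 over -0.27 to -0.13. Those 3, with Tgfbr2 (-0.25 to -0.03) and Acvr2a (-0.26 to -0.02), were below the median in all 19 settings. Bmpr2 was below it in 17 and never farther from it than 0.09, Acvr1 in 18, Acvr2b in 15 and Tgfbr1 in 1. The settings are not separate observations, because leaving out the trend or adding the replicate block does not change an estimate. Under the pan-endothelial scaling the relative values of Eng, Tgfbr3 and Acvrl1 were -0.69, -0.47 and -0.22. Subtracting the median removes nearly all of a change of scale, so these could hardly move from the values as deposited. Before the subtraction they were -0.59, -0.38 and -0.12.

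**Figure D4:**
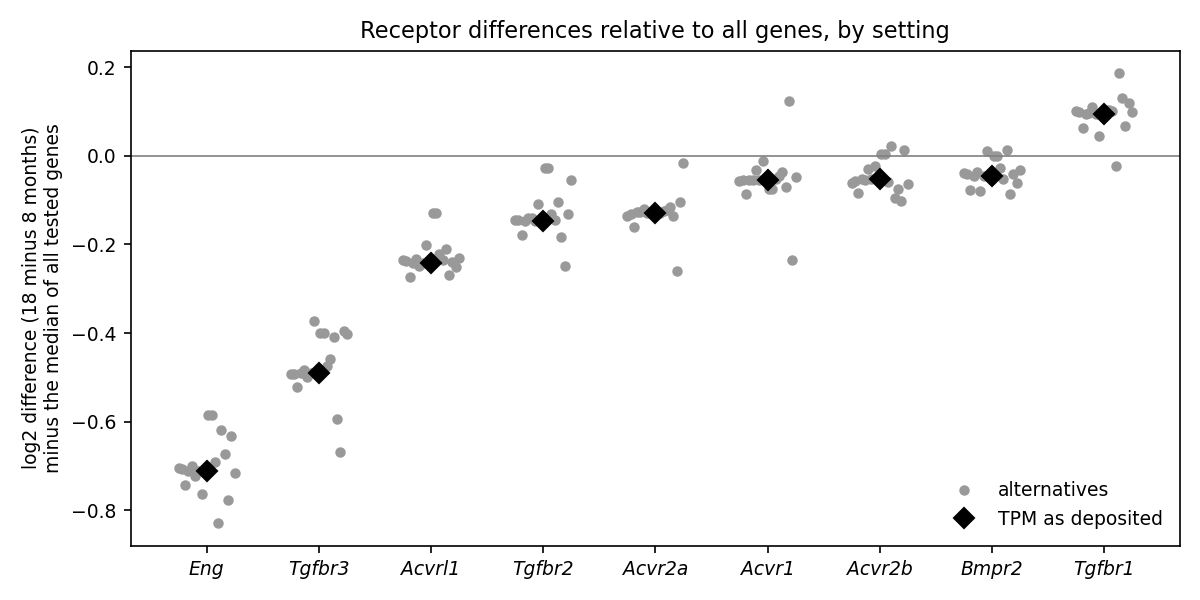
Difference between 18 and 8 months of each tested receptor minus the median difference of all tested genes (log2), with the TPM as deposited as diamonds and the 18 alternative settings as grey points. Eng, Tgfbr3 and Acvrl1 stay below 0 in all settings, Bmpr2 lies within 0.09 of 0, and Tgfbr1 lies above 0 in all but 1.

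Few sequences of the receptors are shared with other genes. Between 0 and 7.32% of the 31-base words of a receptor's transcripts occurred in another gene, the highest share being that of Acvr2a with Orc4, whose exons overlap it by 446 bases on the opposite strand. Exons of Eng overlap those of Fpgs by 61 bases on the opposite strand. Fpgs had 18.8 ± 2.43 TPM at 18 months and 22.4 ± 3.60 TPM at 8 months (log2 difference -0.24, limma adjusted p = 0.55), and Orc4 44.4 ± 7.89 and 44.3 ± 5.42 TPM (-0.01, limma adjusted p = 0.99; SD, n = 3 each). The sources used here give no strand setting for the quantification, so reads from such overlaps cannot be told apart. Fpgs stood far below Eng, whereas Orc4 stood above Acvr2a.

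The other receptors and membrane modulators of the pathway were 12 genes, of which 4 were tested, all 4 lower and 0 past the adjusted threshold. An unadjusted p under 0.05 in limma was found for 2 (median log2 difference -0.49). For this list and those below, 66.2% of all tested genes were below 0. The unadjusted mark was met by 9.99% lower and 3.45% higher. The ages did not overlap in 14.2% lower and 4.48% higher. Acvr1b (ALK4), the activin type I receptor, had 7.72 ± 1.49 TPM at 18 months and 11.0 ± 0.884 TPM at 8 months (log2 difference -0.48, limma adjusted p = 0.27). Vasn, a membrane protein that traps TGF-beta, had 5.99 ± 1.21 and 9.26 ± 1.10 TPM (-0.56, adjusted p = 0.23), and the ages did not overlap for either gene. Bambi, a kinase-less decoy receptor, had 2.44 ± 0.554 and 3.91 ± 1.2 TPM (-0.49, adjusted p = 0.43), and Amhr2, the receptor of anti-Mullerian hormone, had 1.23 ± 0.216 and 1.45 ± 0.403 TPM (SD, n = 3 each). Bmpr1b, the type I relative of Bmpr1a, did not pass the filter and is named after its values were seen: it was listed at 0.0113, 0.00216 and 0.00489 TPM at 18 months, against 0.266, 0.439 and 0.419 TPM at 8 months.

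Of the 13 BMP ligands, 3 were tested and 0 passed the adjusted threshold; 1 was higher at an unadjusted p under 0.05 (median log2 difference -0.02). That gene was Bmp6, which endothelium secretes to control hepcidin in the liver and which signals through type I and type II receptors of this set. It had 120, 125 and 123 TPM at 18 months, against 76.2, 113 and 84.2 TPM at 8 months, so all 18-month libraries were above all 8-month libraries (log2 difference 0.44, SE 0.15, limma adjusted p = 0.25). Gdf2 and Bmp10, which encode the circulating ligands of ALK1, were listed at 0 in all 6 libraries. Bmp4 had 2.59 ± 0.639 and 4.0 ± 3.28 TPM and Bmp5 2.87 ± 0.544 and 2.96 ± 0.873 TPM at 18 and 8 months (SD, n = 3 each). Of 12 TGF-beta and activin ligands, 11 were among the genes measured and 4 were tested. Of those, 3 were lower, 1 was higher and 0 passed either mark (median log2 difference -0.29). Tgfb1 had 1.40 ± 0.409 and 1.91 ± 0.0382 TPM at 18 and 8 months, lower at 18 months without overlap. Tgfb3 had 1.78 ± 0.612 and 2.43 ± 0.0673 TPM, and Tgfb2 3.2 ± 0.394 and 3.09 ± 1.64 TPM. Inhbb, an activin subunit, had 1.24 ± 0.943 and 1.62 ± 0.387 TPM.

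Among 12 extracellular BMP inhibitors and modulators, Twsg1, a cofactor that binds BMPs, was the single gene tested (6.78 ± 1.80 TPM at 18 months and 7.62 ± 0.556 TPM at 8 months, limma adjusted p = 0.76). Of 10 genes that bind or activate latent TGF-beta 7 were tested, 3 lower and 4 higher, with 0 past the adjusted threshold and 1 higher at an unadjusted p under 0.05 (median log2 difference 0.16). Ltbp1, which ties latent TGF-beta to the matrix, had 17.4, 17.5 and 16.2 TPM at 18 months, against 10.5, 11.6 and 10.0 TPM at 8 months. The ages did not overlap and each was tight, and the log2 difference was 0.63 (SE 0.12, 95% interval 0.35 to 0.90, unadjusted p = 0.00080, limma adjusted p = 0.13). Ltbp3 (2.64 ± 0.202 TPM at 18 months and 3.79 ± 0.648 TPM at 8 months) and Ltbp4 (20.2 ± 3.81 and 28.3 ± 9.90 TPM), of the same family, had log2 differences of -0.39 and -0.42 (limma adjusted p = 0.39 and 0.53). The ages overlapped for Ltbp4 but not for Ltbp3. Lrrc32, which holds latent TGF-beta on the cell surface, had 78.9 ± 16.1 TPM at 18 months and 64.9 ± 9.82 TPM at 8 months, and Nrros, its relative, 64.3 ± 10.1 and 59.7 ± 23.2 TPM (SD, n = 3 each).

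Inside the cell, 17 of 18 regulators of the receptors were tested: 15 were lower and 2 higher, 0 passed the adjusted threshold, and 2 were lower at an unadjusted p under 0.05 (median log2 difference -0.16). Gipc1, a PDZ protein known to bind the cytoplasmic tails of endoglin and betaglycan, had 38.5, 24.8 and 33.9 TPM at 18 months, against 51.8, 55.6 and 54.2 TPM at 8 months. All 18-month libraries were below all 8-month libraries (log2 difference -0.74, SE 0.16, unadjusted p = 0.0018, limma adjusted p = 0.15). Fkbp1a, which encodes FKBP12, a binder of unstimulated type I receptors, had 819 ± 85.5 TPM at 18 months and 1079 ± 38.6 TPM at 8 months (-0.40, adjusted p = 0.19), also without overlap. Smad6, an inhibitory SMAD of the BMP branch, had 42.3 ± 3.01 and 51.2 ± 5.92 TPM (-0.27, adjusted p = 0.38). Strap, a binder of the inhibitory SMAD7, had 23.9 ± 5.91 and 30.8 ± 1.66 TPM (-0.38, adjusted p = 0.42). Neither gene overlapped between the ages. In all, 4 of the 17 tested regulators were lower without overlap, against 14.2% of all tested genes. Cav1, the caveolar coat protein, had 2779 ± 218 and 2920 ± 130 TPM and the ubiquitin protease Usp15 102 ± 9.22 and 101 ± 6.82 TPM at 18 and 8 months (SD, n = 3 each).

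Of 10 SMADs and co-regulators 9 were tested, 6 lower and 3 higher, with 0 past the adjusted threshold and 1 lower at an unadjusted p under 0.05 (median log2 difference -0.07). Smad1, a receptor-regulated SMAD of the BMP branch, had 23.8 ± 0.198 TPM at 18 months and 21.2 ± 1.95 TPM at 8 months (log2 difference 0.17, limma adjusted p = 0.57). It was higher at 18 months without overlap, as in 4.48% of all tested genes. Smad4, the shared partner, had 23.2 ± 0.770 and 24.3 ± 0.429 TPM, and Smad3, of the TGF-beta branch, 1.56 ± 0.479 and 2.81 ± 0.754 TPM (-0.57, adjusted p = 0.34). The SMAD repressors Skil and Ski had 59.6 ± 8.5 and 62.6 ± 8.81 TPM, and 10.9 ± 0.965 and 12.7 ± 2.68 TPM, and Trim33, a ubiquitin ligase that acts on SMAD4, 7.36 ± 1.54 and 8.01 ± 1.13 TPM at 18 and 8 months (SD, n = 3 each).

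Target genes of the BMP branch in endothelium lay on both sides of 0: of 12 genes 9 were tested, 6 lower and 3 higher, with 0 past the adjusted threshold and 1 in each direction at an unadjusted p under 0.05 (median log2 difference -0.13). Id1, the best known direct target of SMAD1, had 598, 559 and 555 TPM at 18 months, against 749.5, 748.5 and 639 TPM at 8 months. Its ages did not overlap (log2 difference -0.32, SE 0.10, limma adjusted p = 0.24). Id3, its relative, had 1994 ± 203 TPM at 18 months and 2388 ± 766 TPM at 8 months (-0.21, adjusted p = 0.75). Tmem100, a target of ALK1 signalling, had 4623 ± 93.8 and 4222 ± 540 TPM (0.14, adjusted p = 0.71), Hey1 130 ± 9.83 and 106 ± 16.7 TPM (0.30, adjusted p = 0.36), and Hey2 2.66 ± 0.436 and 1.61 ± 0.735 TPM (0.52, adjusted p = 0.40; SD, n = 3 each). Hey1 and Hey2 are also Notch targets, and Hey1 is among the 7 arterial markers, all higher at 18 months, which summed to 1003 to 1121 TPM at 18 months and 695 to 900 TPM at 8 months.

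Of 10 TGF-beta target genes 9 were tested, 7 lower and 2 higher, with 0 past the adjusted threshold and 2 lower at an unadjusted p under 0.05 (median log2 difference -0.07). Ccn2, a matricellular protein that YAP also drives, had 36.1, 15.1 and 24.6 TPM at 18 months, against 41.7, 110 and 71.0 TPM at 8 months, with no overlap (log2 difference -1.49, SE 0.39, limma adjusted p = 0.19). Col4a1, a basement membrane collagen, had 110 ± 12.2 TPM at 18 months and 135 ± 11.4 TPM at 8 months (-0.30, adjusted p = 0.32), also with no overlap. Pmepa1, a negative regulator of TGF-beta signalling, had 6.11 ± 0.747 TPM in the 18-month and 4.98 ± 0.665 TPM in the 8-month libraries (SD, n = 3 each).

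**Figure D5:**
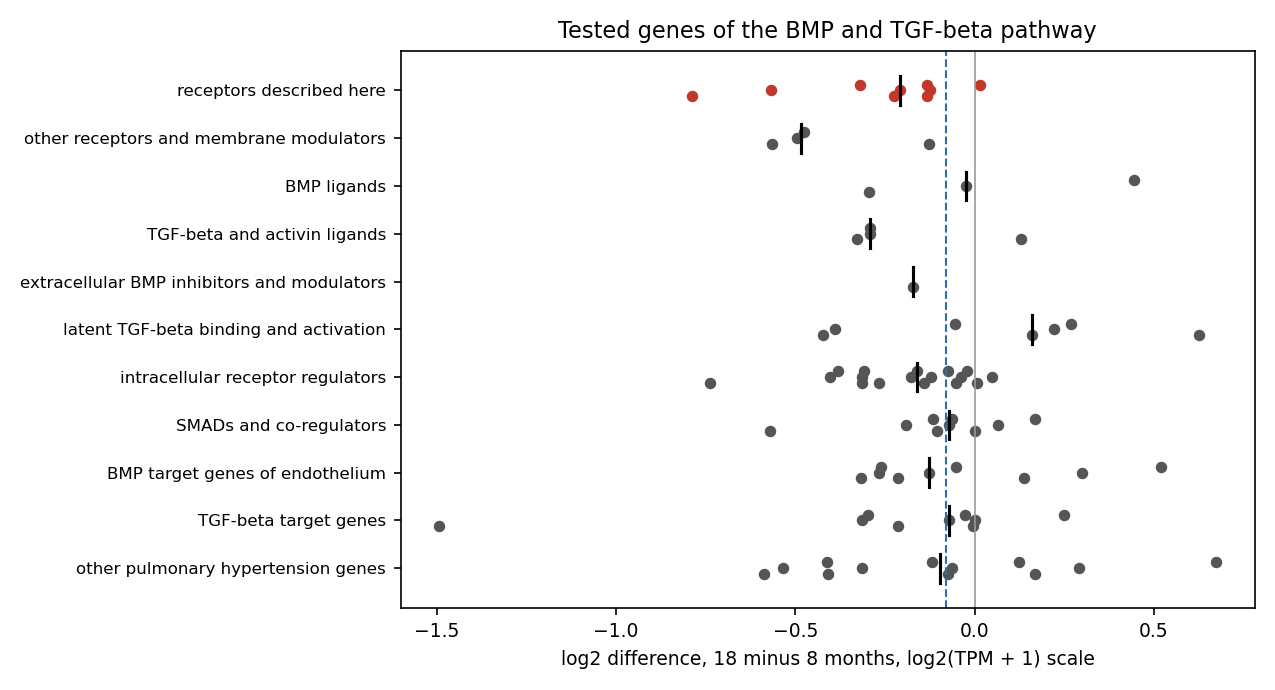
Difference between 18 and 8 months of every tested gene of each list on the log2(TPM + 1) scale, with a short black bar at each list's median and a dashed line at the median of all tested genes. The receptors (red) have a median of -0.21, and Ltbp1, Bmp6 and Ccn2 lie at 0.63, 0.44 and -1.49.

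Markers of several vessel and cell types also differed in level between the ages, none of them past the adjusted threshold in limma. Of all tested genes, 66.2% had a difference below 0. The 7 aerocyte markers were all lower at 18 months and summed to 3957 to 4508 TPM at 18 months, against 4868 to 6475 TPM at 8 months. The 6 general capillary markers, 2 lower and 4 higher at 18 months, summed to 3791 to 3967 and 3271 to 3918 TPM. Fibroblast markers summed to 9.26 to 12.9 TPM at 18 months and 18.9 to 34.8 TPM at 8 months, with all 6 tested genes lower, and smooth muscle and pericyte markers to 14.3 to 17.8 and 22.3 to 29.5 TPM, with all 5 tested genes lower. Such sums do not tell how much receptor RNA these cells carry. Alveolar epithelial markers, carried by Sftpc, summed to 4296 to 6972 TPM at 18 months and 5322 to 12821 TPM at 8 months, with 5 of 6 tested genes lower. Within that list Epcam, at 0.501 ± 0.0412 and 0.731 ± 0.571 TPM, was lowest, and Cdh1 had 10.4 ± 3.73 and 10.5 ± 6.63 TPM, Ager 65.1 ± 12.9 and 81.7 ± 25.6 TPM, and Sftpb 116 ± 36.3 and 163 ± 88.8 TPM at 18 and 8 months (SD, n = 3 each). Macrophage markers, carried by Lyz2, summed to 893 to 1675 and 609 to 1727 TPM, with all 7 tested genes higher at 18 months (median log2 difference 0.66). Chil3 had 141, 391 and 249 TPM at 18 months, against 26.7, 31.4 and 140 TPM at 8 months (log2 difference 2.26, limma adjusted p = 0.19), and Csf1r was under 1 TPM in every library. Lymphatic markers, carried by Lyve1, summed to 602 to 759 and 917 to 1153 TPM, with all 5 tested genes lower at 18 months and Prox1 and Reln at or near 0. Ccl21a of that list had 1.66, 1.66 and 1.39 TPM at 18 months, against 3.67, 21.9 and 17.8 TPM at 8 months (log2 difference -2.30, limma adjusted p = 0.16), and Flt4 had 31.6 ± 7.46 and 42.3 ± 6.75 TPM. Airway markers, carried by Scgb1a1, summed to 5512 to 12913 and 5942 to 7696 TPM at 18 and 8 months, with Krt5 at 0. All 3 tested airway genes were higher at 18 months (median log2 difference 0.64). Lymphocyte markers summed to 8.26 to 12.9 and 9.74 to 36.4 TPM, with all 4 tested genes lower. Blood markers summed to 237 to 515 and 240 to 1279 TPM, with 3 tested genes lower and 1 higher. The part of these cell types in the receptor differences was not tested.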

How the data were processed

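RNA-seq was done on 6 libraries of sorted lung endothelial cells, 3 per age. Per the labels' protocols, 10 ng of total RNA went into each SMARTer Ultra Low library, read as 100 bp pairs on a HiSeq. The deposited TPM were made by the authors with kallisto and the mm10 build, per the submitters' processing notes; the sources used here give no version, transcript set or strand setting for it. Of 24520 identifiers, 24299 were matched to GENCODE M21 for names and positions on GRCm38.

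From there, log2(TPM + 1) of the 12748 genes whose mean was 1 TPM or more was tested in limma 3.58.1 (R 4.3.3) with an intensity trend, 2-sided and with no term other than age, and p-values were adjusted by Benjamini-Hochberg over all tested genes (threshold 0.05). The fit was tested on simulated data. Fold changes on this scale understate those of low genes.

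The 10 receptors were named whatever their result. Of each pathway list, up to 4 genes with the smallest unadjusted p and up to 3 with the highest mean were named, except 1 that is not reported here; genes most like Bmpr2, Acvrl1 and Eng were the 3 with the highest Pearson r among protein-coding genes averaging 20 TPM or more. The receptors and the lists were chosen with earlier results of these data known. The alternatives were other pseudocounts, filters, scalings, weights and terms, a loess correction for GC content and transcript length, and each library left out; scaling to the pan-endothelial markers was added after seeing the data.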

Additional observations from a re-analysis of the deposited data

How the results depend on the processing

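With the TPM as deposited 3 genes of all tested passed the adjusted threshold, and 0 receptors. That gene count was 0 with no filter on low values (669 higher and 1534 lower at an unadjusted p under 0.05), 16 with quantile normalization, 16 when scaled by the median of ratios, 94 with library weights, 19 with scaling to the pan-endothelial markers, and 0 to 2 with a library left out: 2 without the third 8-month library, 1 without the first 8-month library and 0 without any of the other 4, where 395 to 487 genes were higher and 738 to 1682 lower at an unadjusted p under 0.05. The labels do not say that the replicate numbers pair the libraries. Deviations of same-numbered libraries correlated at -0.012, -0.09 and 0.057, against -0.069 to 0.083 for other numbers. Not every library correlated best with its own number. With 3 libraries per age these values cannot tell whether a number marks a shared preparation. With the replicate block 0 genes passed (422 higher and 1023 lower unadjusted), and with the block and the GC and length correction 0 (825 higher and 698 lower unadjusted).

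Library weights, which called 94 of all genes, called 1 receptor, Eng (-0.84). Over the 18 alternatives Eng ranged over -0.95 to -0.57 (adjusted p 0.044 to 0.349), with an unadjusted p under 0.05 in all 18; Acvrl1 ranged over -0.36 to -0.11 (14 of 18) and Tgfbr3 over -0.77 to -0.38 (15 of 18). Signs turned for receptors near 0: Bmpr2 was 0.018 with the GC and length correction, with or without the block, and 0.070 with the pan-endothelial scaling; Acvr2b was 0.021 and 0.039 in the same settings; Acvr1 was 0.045 with the pan-endothelial scaling and -0.28 to 0.026 with a library left out; Tgfbr1 was -0.032 with library weights and -0.14 to 0.14 with a library left out. With Acvr1b, Acvr1c and Bmpr1b counted among the type I receptors the share of Acvrl1 was 97.2% at 18 months and 97.4% at 8 months. The cause was not tested. Depth is unknown, and 3 libraries per age limit the precision.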

Other observations

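Other genes linked to pulmonary arterial hypertension in humans, 19 outside the receptors, had 12 tested members, with 0 past the adjusted threshold in limma. Of these, 8 were lower and 4 higher at 18 months (median log2 difference -0.10), where 66.2% of all tested genes were lower. At an unadjusted p under 0.05 in limma, 3 were lower and 1 higher, against 9.99% and 3.45% of all tested genes. Kdr, the main VEGF receptor of endothelium, had 402, 331 and 385 TPM at 18 months, against 520, 509 and 591 TPM at 8 months (log2 difference -0.54, SE 0.11, limma adjusted p = 0.14). Aqp1, a water channel, had 377, 369 and 341 TPM at 18 months, against 515, 459 and 470 TPM at 8 months (-0.41, SE 0.09, adjusted p = 0.15). The ages did not overlap for either gene. Klf2, a flow-induced transcription factor, had 171 ± 24.6 TPM at 18 months and 212 ± 24.1 TPM at 8 months (-0.31, adjusted p = 0.36). Atp13a3, a polyamine transporter, had 4.52, 3.83 and 5.34 TPM at 18 months, against 2.08, 2.52 and 2.84 TPM at 8 months, again without overlap and here higher at 18 months (0.67, SE 0.18, adjusted p = 0.19).

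Among 5227 protein-coding genes, those whose levels over the 6 libraries were most like each of the 3 abundant receptors were listed as a description; the points share their age groups, and 6 points allow many high values. For Eng these were Cracr2b (r = 0.999), Arhgef1 (0.998) and Lime1 (0.997). Cracr2b had 67.8, 43.2 and 49.8 TPM at 18 months, against 83.2, 114 and 95.5 TPM at 8 months, the same order of libraries as Eng. For Acvrl1 they were Rpn1 (0.998), Txnl4a (0.997) and Efcab14 (0.996). For Bmpr2 they were Ctnnd1 (0.995), Cdkal1 (0.990) and Ggcx (0.990), all of which, like Bmpr2, were lowest in the second 18-month library. Ggcx is also on the list of pulmonary arterial hypertension genes.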
